A study of Mus musculus with 2 samples.

Results

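Prox1, Lyve1, Reln, Mmrn1 and Ccbe1 are 5 genes used to recognise lymphatic endothelium, the lining of the vessels that drain tissue fluid, or needed to form it. They were taken by name. All 5 were found among 43346 gene rows, of which 21474 code for protein. The samples are 2 RNA-seq libraries of lung tissue from mouse embryos of strain B6NCrl at embryonic day 16.5. They are biological replicates of a single group whose health state is labelled healthy, each made from lungs of male and female embryos pooled together. The labels state 41 embryos for the pool of replicate 2 and no number for replicate 1. Replicate 1 held 38852470 expected counts and replicate 2 held 27145411, where an expected count is an estimated number of reads. With a single group no test between conditions was possible, so no p-value is given, and every ± is an SD over n = 2. The RNA comes from tissue and not from sorted cells, and fewer cells of a type cannot be told apart from less RNA per cell.

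Lymphatic vessels of the mouse arise when venous endothelial cells switch on Prox1, a homeodomain transcription factor, under the factors Sox18 and Nr2f2. The cells then leave the vein towards VEGF-C, which acts on the receptor Flt4. Ccbe1 is a secreted matrix protein that helps the protease Adamts3 to cut VEGF-C into its active form. Lyve1 is a hyaluronan receptor on the surface of lymphatic capillaries, Mmrn1 encodes the secreted protein multimerin, and Reln encodes the large secreted glycoprotein reelin. None of the 5 is restricted to this lineage. Ccbe1 may be made by mesothelium, and whether lymphatic endothelium itself made it was not tested here. Lyve1 is also made by tissue macrophages and some embryonic blood vessels, Mmrn1 by megakaryocytes and platelets, Prox1 by hepatocytes and heart muscle, and Reln by neurons.

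The 5 genes were spread over a wide range. Levels are given as TPM (a share of all transcripts in the library, after division of reads by transcript length), which allows genes to be compared. Lyve1 led at 55.5 ± 2.06 TPM and Mmrn1 followed at 14.3 ± 2.23 TPM. Ccbe1 stood at 2.19 ± 0.0990, Prox1 at 1.51 ± 0.0141 and Reln at 1.12 ± 0.467 TPM. Lyve1 was thus 36.7 times the level of Prox1 and 49.5 times that of Reln. Steps from Lyve1 to Mmrn1, from Mmrn1 to Ccbe1 and from Ccbe1 to Prox1 exceeded the spread between replicates. The step from Prox1 to Reln did not. Between Ccbe1 and Prox1 the deposited credibility bounds of TPM overlapped within each replicate, at 1.71 to 2.57 against 1.34 to 1.78 TPM in replicate 1. Expected counts not divided by length were higher for Prox1, so the order of these 2 genes is not settled. At 1 TPM or more in both replicates, 4 of the 5 were counted as detected, the exception being Reln in replicate 1, while 61.5% of all genes coding for protein met this limit. At 10 TPM or more in both replicates stood 2 of the 5, Lyve1 and Mmrn1, against 40.3% of the coding genes. The median over the 5 was 2.19 ± 0.0990 TPM and that over all coding genes 4.87 ± 0.219 TPM.

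**Figure D1:**
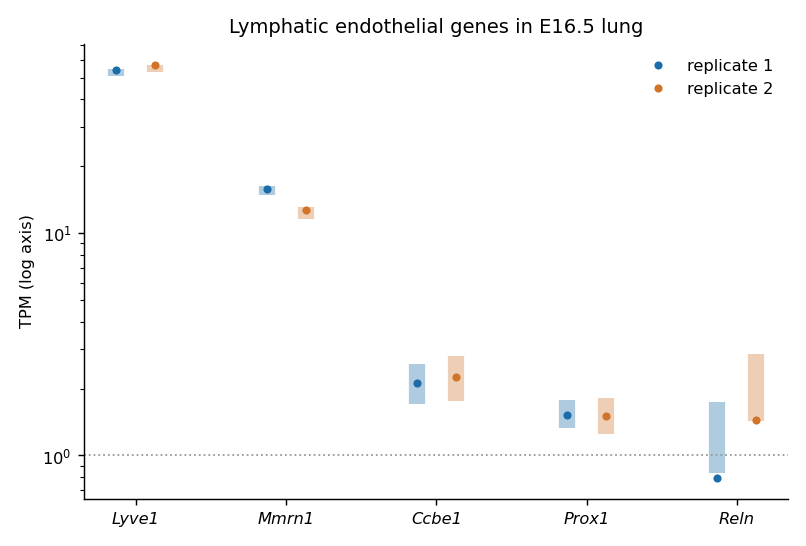
TPM of the 5 genes in each replicate, on a log axis, with dots for the deposited TPM and bars for the credibility bounds deposited beside it, and a dotted line at 1 TPM. Lyve1 and Mmrn1 lie above 10 TPM and the other 3 between 0.79 and 2.26 TPM, and only for Mmrn1 do the bars of the replicates not overlap.

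Prox1, the factor that sets lymphatic identity, was low. It lies on chromosome 1 (190118035 to 190170714, minus strand, build mm10) and reached 1.52 TPM in replicate 1 and 1.50 in replicate 2. These levels rest on 288 and 181 expected counts. The deposited bounds ran from 1.34 to 1.78 TPM and from 1.24 to 1.82 TPM, so the replicates overlapped almost completely. Among the coding genes Prox1 ranked 12908th by mean TPM, with 39.9% of them below it.

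Of Prox1, 3 transcripts were quantified, which share a coding length of 2211 nt. They differ in the first exon and in where the last exon ends. Prox1-202, of 7913 nt, starts at the upstream first exon (position 190170714) and took 88.1% of the TPM of the gene in replicate 1 and 72.1% in replicate 2. Prox1-201, of 3285 nt, starts at position 190169399, further downstream. It took 7.85% and 27.9%, on 9.93 and 24.6 expected counts whose deposited standard deviations were 7.46 and 8.33. Prox1-203 had 4.07% in replicate 1 and was listed at 0 in replicate 2. Prox1-202 thus led in both replicates, and the share of the downstream start rests on few reads. The transcripts also differ at the end, so reads in the long last exon of Prox1-202 enter these shares as well as reads across the first exons.

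The sequences before both starts are shown because the transcript shares divide between them. RefSeq places its starts at positions 190170827 and 190169515 of chromosome 1 (GRCm38.p6, minus strand), slightly upstream of the GENCODE models. Each line gives the 250 bases before the start, 5′ to 3′, with capitals for matches on either strand to 5 motifs: AACAAT (SOX factors), AGGTCA (a half-site of nuclear receptors, the family of Nr2f2), GGAAGT (ETS factors), GGGCGG (GC box) and TATAAA (a core promoter element, the TATA box).
Prox1 upstream start, chr1:190170828-190171077: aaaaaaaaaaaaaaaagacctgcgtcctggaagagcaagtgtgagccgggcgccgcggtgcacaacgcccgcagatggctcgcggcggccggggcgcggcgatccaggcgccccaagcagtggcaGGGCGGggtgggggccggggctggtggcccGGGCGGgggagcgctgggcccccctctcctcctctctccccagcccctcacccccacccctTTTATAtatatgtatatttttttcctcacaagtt
Prox1 downstream start, chr1:190169516-190169765: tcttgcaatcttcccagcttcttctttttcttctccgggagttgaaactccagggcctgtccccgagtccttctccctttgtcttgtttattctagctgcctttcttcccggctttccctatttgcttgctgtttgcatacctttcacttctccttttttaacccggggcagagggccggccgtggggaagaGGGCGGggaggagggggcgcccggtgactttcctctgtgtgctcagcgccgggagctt

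The window of the upstream start held 20 CG dinucleotides, a number that 17.9% of 32851 RefSeq promoter windows reach. It held 2 GC boxes and 1 TATA box. The window of the downstream start held 11 CG dinucleotides, which 35.6% of windows reach, and 1 GC box. GC boxes occur in 32.7% of all windows and TATA boxes in 12.4%. Neither window held the SOX, nuclear receptor or ETS motif, which occur in 9.42%, 14% and 19.7% of windows. A match is a run of letters and not a bound site, and a missing match says nothing of the factor.

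Lyve1, the hyaluronan receptor, was the highest of the 5 and among the better expressed genes of the tissue. On chromosome 7 (110850607 to 110863239, minus strand), it reached 54.0 TPM in replicate 1 and 56.9 in replicate 2, on 3540 and 2645 expected counts. The deposited bounds of 51.1 to 54.6 TPM and 53.2 to 57.4 TPM overlapped. Its rank was 2933 among coding genes, 86.3% of which lay below it. A single transcript, Lyve1-201, was quantified, so its share is 100% by construction. It is 2607 nt long as quantified and 2893 nt in the later GENCODE M21, which lists 2 transcripts of the gene.

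Lyve1 exceeded the macrophage gene Mrc1, a mannose receptor, by 3.20 ± 0.0988 on the log2 scale of TPM, or 9.21-fold. Of 10 macrophage genes, 8 reached 1 TPM in each library, against 61.5% of coding genes. The list median was 10.2 ± 0.714 TPM. Cbr2 led the list at 164 TPM in replicate 1 and 295 in replicate 2, but this carbonyl reductase is also a gene of airway secretory cells. Tyrobp, a signalling adaptor of myeloid cells, came next at 48.8 ± 5.63 TPM. C1qb followed at 44.8 ± 1.86 TPM, F13a1 at 22.6 ± 0.283 TPM and Csf1r at 14.3 ± 0.792 TPM. Mrc1 was at 5.59 and 6.49 TPM, Adgre1 averaged 4.78 TPM and Folr2 1.80 TPM. Cd163 and Timd4, receptors of resident macrophages, averaged under 1 TPM. The summed level of the macrophage list was 301 TPM in replicate 1 and 445 in replicate 2, and without Cbr2, a sum added after seeing the data, it was 137 and 151 TPM. Of 8 members with a mean of 1 TPM or more 7 were higher in replicate 2, and without Cbr2 6 of 7. Among coding genes at that level, 48.1% were higher. Apart from Cbr2, the differences on log2(TPM + 1) lay inside the SD of genes of their level. That SD was 0.53 at 1 to 10 TPM and 0.24 at 10 to 100 TPM. How much of the Lyve1 RNA came from macrophages was not tested.

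Ccbe1, the cofactor of VEGF-C cleavage, lies on chromosome 18 (66045302 to 66302741, minus strand). It was at 2.12 TPM in replicate 1 and 2.26 in replicate 2, on 174 and 111 expected counts. Its bounds of 1.71 to 2.57 TPM and 1.75 to 2.80 TPM overlapped over most of their length, and 42.7% of coding genes lay below it.

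The level of Ccbe1 depended on how reads were divided among its 4 transcripts. Ccbe1-201, of 5304 nt and annotated as a target of nonsense-mediated decay, held 123 of 174 expected counts in replicate 1 and 56.7 of 111 in replicate 2. Ccbe1-202 is only 1631 nt long in the deposited tables, and with 45.6 and 39.5 expected counts it took 53.8% and 61.6% of the TPM. Ccbe1-203, a retained intron, had 2.38% in replicate 1 and 9.57% in replicate 2. When the counts of the gene were divided by the length of Ccbe1-201 alone, its level was 1.21 ± 0.0911 TPM, below the 1.33 ± 0.114 TPM of Prox1 computed in the same way. The later GENCODE M21 gives Ccbe1-202 a length of 6572 nt, so the model that carried most of the TPM is shorter here than in the later annotation.

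Ccbe1 is set beside the genes it works with. Vegfc, the ligand that its complex matures, averaged 6.13 ± 0.495 TPM and exceeded Ccbe1, whose log2 ratio to Vegfc was -1.48 ± 0.182. Adamts3, the protease, stood at 2.86 ± 0.0919 TPM, with a log2 ratio of Ccbe1 to Adamts3 of -0.38 ± 0.112. The related protease gene Adamts14 was at 2.17 TPM in replicate 1 and 2.22 in replicate 2. Vegfd, a second ligand of Flt4, was 7.86 times as high as Vegfc, at 48.1 ± 1.27 TPM. The receptor Flt4 stood at 8.18 ± 1.14 TPM, below the blood vessel receptor Kdr at 56.0 ± 2.67 TPM, a log2 ratio of -2.78 ± 0.133. All 8 genes of this pathway reached 1 TPM in each library, against 61.5% of coding genes. The list median was 9.28 ± 1.10 TPM.

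Reln was the lowest of the 5 by the deposited TPM, though not below Prox1 by more than the replicate spread, and the least steady. By the posterior mean it was at 1.69 TPM, above Prox1 at 1.54. On chromosome 5 (21884454 to 22344702, minus strand), it was at 0.79 TPM in replicate 1 and 1.45 in replicate 2, on 124 and 155 expected counts. The value of replicate 1 lay just below its own deposited bounds, 0.834 to 1.74 TPM, while replicate 2 had bounds of 1.43 to 2.86 TPM. These bounds belong to the posterior estimate of TPM, whose mean was 1.26 in replicate 1 and 2.11 in replicate 2, and they overlapped. Replicate 2 had more reads of Reln although its library was smaller, and in CPM (expected counts scaled to the same library total) it reached 5.71, against 3.19 in replicate 1, a 1.79-fold ratio.

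Of Reln, 12 transcripts were quantified. Reln-207, the long coding transcript of 11699 nt, held 86.2 of 124 expected counts in replicate 1 and 120 of 155 in replicate 2. It nevertheless took only 36.1% and 38.5% of the TPM. Reln-205, a processed transcript of 891 nt from the 3′ part of the gene, took 26.5% and 40.6% of the TPM on 4.33 and 8.65 expected counts. Reln-201, the other full-length coding transcript, had 18.7 and 14.8 expected counts and 8.42% and 5.1% of the TPM. The retained introns Reln-202 (10.4% of the TPM in replicate 1), Reln-209 (7.46% in replicate 1) and Reln-203 (2.35% in replicate 1 and 14.3% in replicate 2) rested on 10.3 expected counts or fewer per library, and Reln-202 and Reln-209 were listed at 0 in replicate 2. Of the 12 transcripts, 4 were listed at 0 in both replicates. With all reads divided by the length of Reln-207, the gene stood at 0.409 TPM in replicate 1 and 0.721 in replicate 2, a mean of 0.565 ± 0.221 TPM. The higher value of replicate 2 was thus present with either length.

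Reln-207 and Reln-201 differ inside the coding sequence by a micro-exon of 6 nt, exon 64 of the 65 exons of Reln-207 (chromosome 5, 21891562 to 21891567, GRCm38). Both stretches are printed from the GENCODE M21 transcripts to show where the 2 coding transcripts differ internally, with the micro-exon in capitals.
Reln-207: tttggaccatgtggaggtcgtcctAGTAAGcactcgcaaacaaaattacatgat
Reln-201: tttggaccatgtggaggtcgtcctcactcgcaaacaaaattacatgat

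Reads over these 6 nt are not the only basis of the split. The last exon of Reln-207 reaches 796 nt further than that of Reln-201, and its first exon 12 nt further, so inclusion of the micro-exon was not measured on its own.

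Of 3 genes that act with reelin, 2 were detected, near the share of 61.5% among coding genes. The list median was 2.14 ± 0.530 TPM. Vldlr, a lipoprotein receptor that binds reelin, was at 31.0 ± 0.764 TPM. Lrp8, the other classical reelin receptor, was at 0.22 TPM in replicate 1 and 0.34 in replicate 2. Dab1, the adaptor that relays the signal, was at 2.51 TPM in replicate 1 and 1.76 in replicate 2, on 120 and 75 expected counts. Replicate 2 minus replicate 1 on the log2(TPM + 1) scale was -0.35, inside the SD of 0.53 over genes of 1 to 10 TPM. The log2 ratio of Reln to Dab1, -0.97 ± 0.982, did not keep its sign by the rule that a mean must exceed 2 SD.

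Among 6 neuron genes, 4 reached 1 TPM in both replicates, near the share of 61.5% among coding genes. The list median was 2.90 ± 0.00707 TPM, below the 4.87 TPM of all coding genes. Stmn2, a regulator of axonal microtubules, was at 12.6 TPM in replicate 1 and 14.7 in replicate 2, and Tubb3, the neuronal tubulin, at 4.87 and 9.18 TPM. Of the 4 with a mean of 1 TPM or more, 3 were higher in replicate 2, against 48.1% of coding genes at that level. The summed level of the list was 23.9 TPM in replicate 1 and 30.9 in replicate 2. The part of neurons in the Reln difference was not tested.

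The window before the RefSeq start of Reln is shown beside that of Mmrn1. Among the 3 genes with windows, these 2 held the most and the fewest CG dinucleotides.
Reln, chr5:22344706-22344955, minus strand: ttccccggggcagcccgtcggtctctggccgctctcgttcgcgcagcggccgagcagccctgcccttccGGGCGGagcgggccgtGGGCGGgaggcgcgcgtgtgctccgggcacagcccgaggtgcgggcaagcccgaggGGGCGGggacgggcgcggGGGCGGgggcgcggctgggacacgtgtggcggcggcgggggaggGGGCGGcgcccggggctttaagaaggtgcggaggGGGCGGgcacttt
Mmrn1, chr6:60944067-60944316, plus strand: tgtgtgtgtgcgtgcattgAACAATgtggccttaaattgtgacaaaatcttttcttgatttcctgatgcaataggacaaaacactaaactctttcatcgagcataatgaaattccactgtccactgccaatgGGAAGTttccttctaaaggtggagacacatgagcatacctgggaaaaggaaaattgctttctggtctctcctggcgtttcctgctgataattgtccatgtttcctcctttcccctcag

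The Reln window, with the same marks as for Prox1, held 37 CG dinucleotides, a number that 2.2% of windows reach, and 6 GC boxes. The Mmrn1 window held 3, which 71% of windows reach, with 1 match each to the SOX and ETS motifs and none to the others. Across 32851 windows the median was 6 CG dinucleotides. The RefSeq start of Mmrn1 at position 60944317 is also the first base of the last exon of Mmrn1-202, a transcript that begins further upstream, so the window ends where that exon begins. The coding transcript Mmrn1-201 starts further downstream, at position 60944476, so the window does not directly precede its start.

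Mmrn1, which encodes multimerin, was the second highest of the 5 and the only one whose deposited bounds did not overlap between the replicates. On chromosome 6 (60924976 to 60989378, plus strand), it was at 15.9 TPM in replicate 1 and 12.7 in replicate 2, on 1758 and 1013 expected counts. The bounds ran from 14.8 to 16.3 TPM and from 11.6 to 13.2 TPM. Among 15493 genes with a mean of 1 TPM or more, 16.6% had bounds that did not overlap. The share was 16.7% among genes of 10 to 100 TPM, where Mmrn1 lies, and 10.1% among genes of 1 to 10 TPM. The 1 of 5 here is thus near the background. The coding transcript Mmrn1-201 took 95.5 ± 1.75% of the TPM. Mmrn1-202, a retained intron that starts upstream, took 5.7% in replicate 1 and 3.22% in replicate 2.

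**Figure D2:**
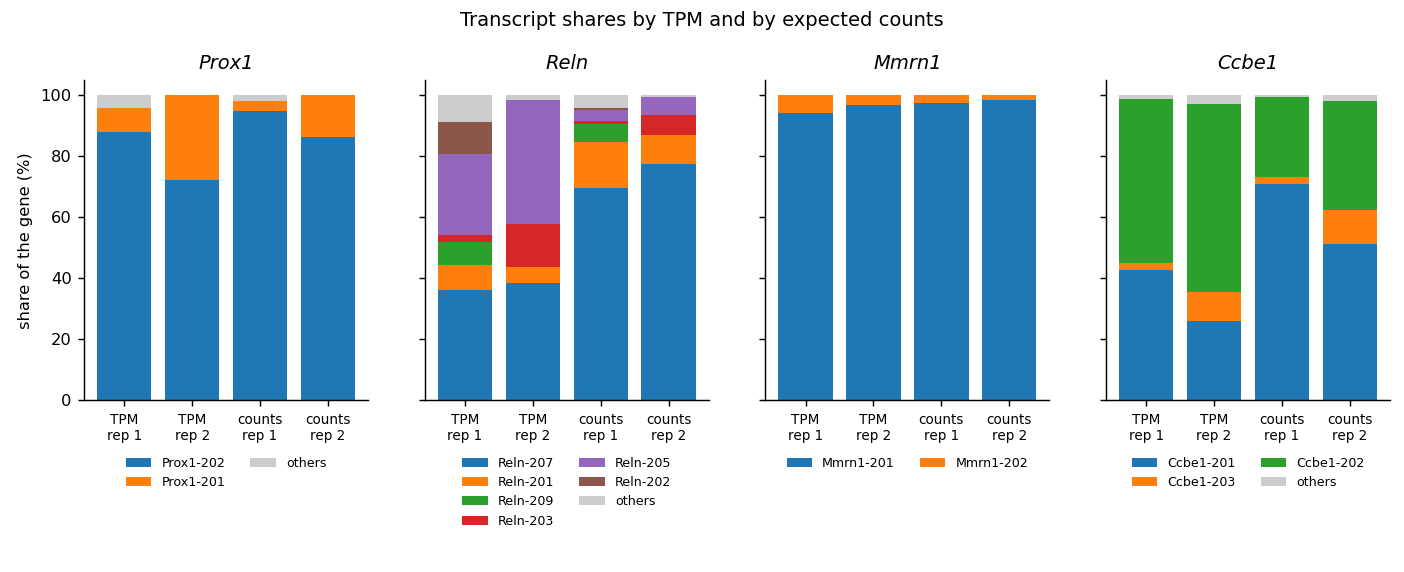
Share of each gene (%) taken by its transcripts in each replicate, by TPM (left pair of bars) and by expected counts (right pair), for the 4 genes with more than 1 transcript. Prox1-202 and Mmrn1-201 lead on either measure, while Ccbe1-202 and Reln-205 take large shares of TPM and smaller shares of expected counts.

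Genes of megakaryocytes and platelets are set beside Mmrn1. Pf4, a chemokine of platelets, was at 55.6 TPM in replicate 1 and 67.6 in replicate 2, and Itga2b, the platelet integrin, at 10.1 and 10.2 TPM. Of 7 such genes with a mean of 1 TPM or more, 5 were higher and 2, Ppbp and Tubb1, were lower in replicate 2. Among coding genes at that level, 48.1% were higher in replicate 2. The list median was 3.75 ± 1.36 TPM, with 7 of 9 detected, against 61.5% of coding genes. The summed level of the 9 genes was 84.7 TPM in replicate 1 and 99.7 in replicate 2. How much of the Mmrn1 RNA came from megakaryocytes or platelets was not tested. Per length Mmrn1 lay below Pf4, at a log2 ratio of -2.11 ± 0.427, while by expected counts not divided by length it lay above, at 1.02.

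The genes upstream of Prox1 were far higher than Prox1 itself. Sox18 was at 70.8 ± 0.311 TPM and Nr2f2 at 47.6 ± 3.26 TPM, both factors that are also active in blood vessels or mesenchyme. Of 8 factors of lymphatic specification and valve formation, 7 reached 1 TPM in each library, against 61.5% of coding genes. The list median was 11.0 ± 0.838 TPM. The exception was Foxc2, a factor of lymphatic valves, at 0.48 TPM in replicate 1 and 0.51 in replicate 2. Against endothelial genes at large, Prox1 relative to Pecam1, an adhesion molecule of endothelial cells, was at -6.33 ± 0.0647 on the log2 scale, or 80.6-fold lower. Relative to Cdh5, the endothelial cadherin, it was at -5.48 ± 0.0657. The 10 pan-endothelial genes had 102 ± 4.03 TPM as their median. All 10 passed 10 TPM in each library, against 40.3% of coding genes. This list was led by Egfl7 at 314 ± 1.33 TPM and Esam at 158 ± 5.93 TPM.

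Among 19 other genes of lymphatic vessels, 18 reached 1 TPM in each library, against 61.5% of coding genes. The list median was 35.5 ± 1.32 TPM. Ramp2, a subunit of the adrenomedullin receptor, led at 273 ± 14.3 TPM, and Emilin1, a matrix protein that anchors lymphatic vessels, followed at 185 ± 7.72 TPM. Most of these genes are also made by blood vessels or other lung cells. Ccl21a, a chemokine of lymphatic endothelium, was at 62.6 TPM in replicate 1 and 65.9 in replicate 2, although it has near-identical copies among which reads may be divided.

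**Figure D3:**
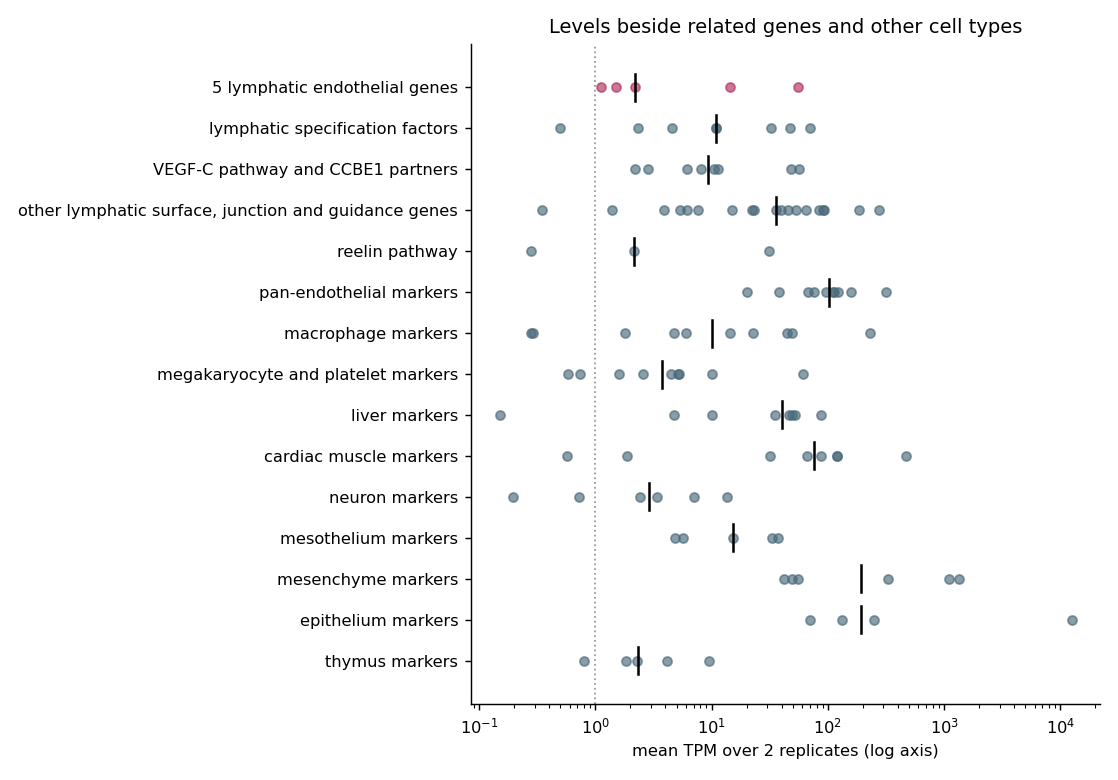
Mean TPM over the replicates on a log axis for each gene (dots) of the 5 lymphatic endothelial genes and 14 lists of related genes and of markers of other cell types, with a black tick at the list median and a dotted line at 1 TPM. The 5 genes span 1.12 to 55.5 TPM, and their median of 2.19 TPM lies below the 102 TPM of the pan-endothelial genes.

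Ratios within a library cancel its scaling. Both replicates shared a sign and the mean exceeded 2 SD in 11 of 13 ratios, those of Reln to Prox1 and to Dab1 being the exceptions. Relative to Prox1, Lyve1 was at 5.20 ± 0.0670 on the log2 scale, Mmrn1 at 3.23 ± 0.213 and Ccbe1 at 0.54 ± 0.0787. Reln relative to Prox1 was at -0.94 in replicate 1 and -0.05 in replicate 2. By expected counts not divided by length, the ratio of Ccbe1 to Prox1 turned to -0.72.

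**Figure D4:**
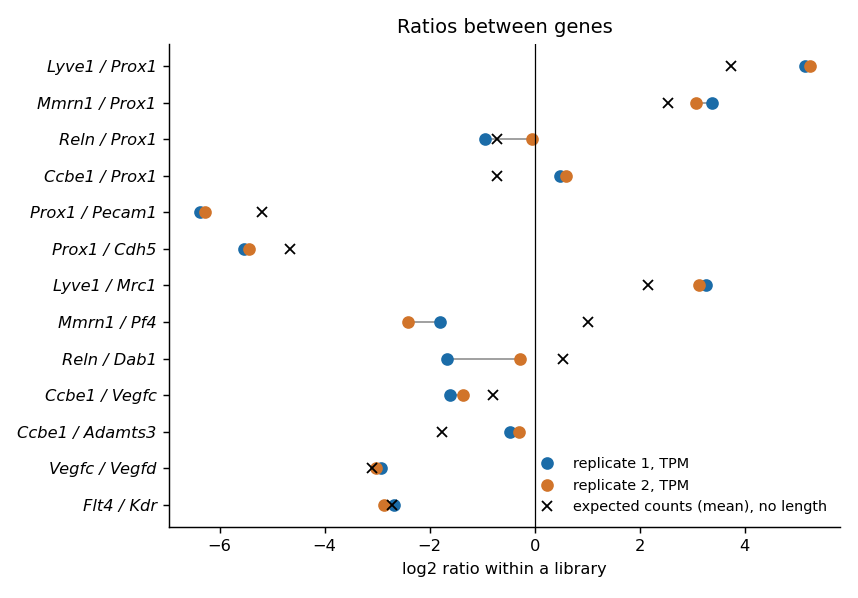
Log2 ratios between genes within each library, with dots for TPM in each replicate joined by a line and a cross for the mean ratio of expected counts. The ratio of Reln to Dab1 has the widest gap between replicates, and crosses lie on the other side of 0 for Ccbe1 over Prox1, Mmrn1 over Pf4 and Reln over Dab1.

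The replicates differed little in Prox1, Ccbe1 and Lyve1, and more in Mmrn1 and Reln. On the log2(TPM + 1) scale, which understates differences of low genes, replicate 2 minus replicate 1 was -0.01 for Prox1, 0.06 for Ccbe1 and 0.07 for Lyve1. It was -0.30 for Mmrn1, where the SD of the same difference over 7597 genes of 10 to 100 TPM was 0.24. For Reln it was 0.45, inside the SD of 0.53 over 6238 genes of 1 to 10 TPM. None of the 5 differed 2-fold or more, as did 2.67% of the 15493 genes with a mean of 1 TPM or more (1.92% higher and 0.742% lower in replicate 2). These were 298 genes higher and 115 lower, while counts scaled by TMM gave 148 higher and 25 lower, by DESeq2 size factors 465 and 116, and by the spike-in total 484 and 113. For Prox1 and Ccbe1, CPM values were slightly lower in replicate 2, at 0.898-fold and 0.913-fold. The mean transcript length by which TPM divides was also lower there, at 6525 nt against 7256 nt in replicate 1 for Prox1 and at 2650 nt against 3145 nt for Ccbe1.

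**Figure D5:**
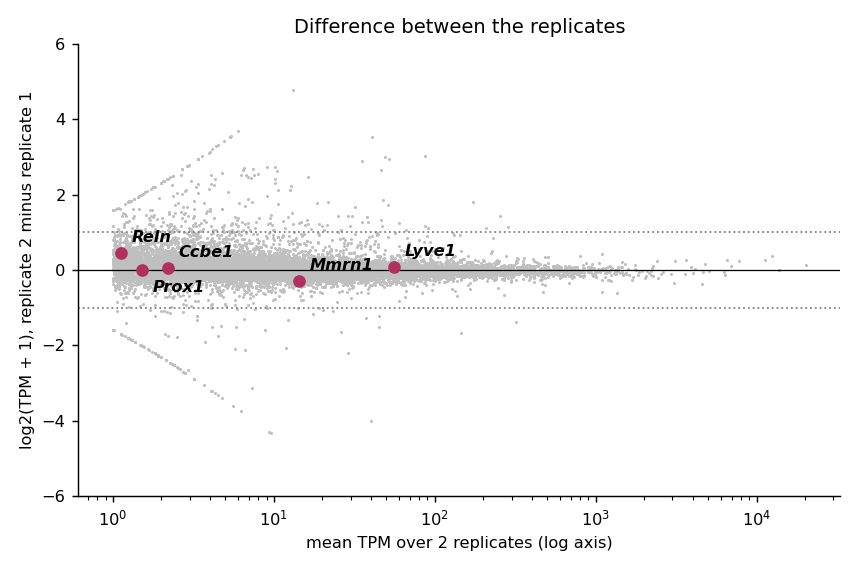
Difference between the replicates on the log2(TPM + 1) scale against mean TPM on a log axis, for 15493 genes (grey) and the 5 lymphatic endothelial genes (red), with dotted lines at 2-fold. All 5 lie between the dotted lines, with Reln highest at 0.45 and Mmrn1 lowest at -0.30.

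Prox1 is also made by liver and heart, and 7 of 8 liver genes differed more between the pools than any of the 5 genes. Of 8 liver genes, 6 reached 1 TPM in each library, against 61.5% of coding genes. The list median was 40.4 ± 44.6 TPM. All 7 with a mean of at least 1 TPM were 2-fold or more higher in replicate 2, the direction of 1.92% of all genes. Afp, the fetal serum protein, led the list at 18.3 TPM in replicate 1 and 155 in replicate 2, and Apoa2, an apolipoprotein, was at 11.1 and 93.0 TPM. The remaining called genes, Alb, Ahsg, Apoa1, Ttr and Fgb, were 6.79 to 13.6 times as high in replicate 2. Hnf4a, a liver transcription factor, was at 0.02 and 0.28 TPM. The summed level of 8 liver genes was 62.2 TPM in replicate 1 and 507 in replicate 2. Prox1 was at 1.52 and 1.50 TPM, and by CPM replicate 2 was at 0.898-fold of replicate 1. The summed level of 8 cardiac genes was 1010 TPM in replicate 1 and 784 in replicate 2, led by the atrial light chain Myl7 at 471 ± 133 TPM and Tnnt2, cardiac troponin T, at 120 ± 16.3 TPM. The share of Prox1 RNA from heart or liver was not tested. Of 8 cardiac genes 7 were detected, against 61.5% of coding genes, with 76.1 ± 19.1 TPM as the median. The 5 thymus genes had 2.35 ± 1.76 TPM as their median, and Cd3g, Ptcra and Psmb11 were 2-fold or more higher in replicate 2, at 2.67, 2.53 and 3.66 times.

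The 5 mesothelial genes, of the lining around the lung, had 15.2 ± 3.27 TPM as their median. All 5 were higher in replicate 2, as were 48.1% of coding genes with a mean of 1 TPM or more. Upk3b, a uroplakin, was at 34.1 TPM in replicate 1 and 40.5 in replicate 2, and Msln, mesothelin, at 25.8 and 40.0 TPM. The part of mesothelium in the level of Ccbe1 was not tested. The 6 mesenchymal genes had 191 ± 0.718 TPM as their median, with the collagens Col3a1 and Col1a1 highest. For the 4 epithelial genes it was 192 ± 1.73 TPM, with Sftpc, a surfactant protein, and the adhesion molecule Epcam highest.

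Of 12 overlapping genes in the later annotation, 10 were matched to a value in the tables, and these carried few reads. The highest was Gm15958, on the strand opposite to Ccbe1, with 7.0 expected counts in replicate 1 and 9.06 in replicate 2. Prox1os and Gm28172, opposite to Prox1, had 5.0 expected counts each in replicate 1. No strand setting is given in the sources used here, so reads of a gene and of its antisense partner may not be separable.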

How the data were processed

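RNA-seq was made from whole lung of mouse embryos in 2 libraries of 1 group. Per the labels' protocols, 10 ng of RNA longer than 200 nt was used and spike-ins were added. Per the notes deposited with the files, reads were quantified on mm10 with GENCODE M4. The aligner and quantifier are not given in the sources used here. The authors deposited expected counts, TPM (scaled over all rows, spike-ins included), FPKM, posterior mean estimates, each transcript's percent share of its gene's TPM, and, as score columns, credibility bounds of TPM. The bounds cover counting and assignment of reads within a library only.

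Symbols, transcript classes and coordinates came from GENCODE M21 of the same build, matched by identifier without version for 42462 of 43346 gene rows. RefSeq promoter windows are shown for 3 of the 5 genes. None was available for Lyve1, and no sequence of Ccbe1 is printed. The members and all lists were chosen with earlier results of these data known. All 5 members are named, as are transcripts with 5% or more of the TPM in either replicate. Of the 14 lists, the 2 highest genes, those differing 2-fold or more and those in ratios are named. Others named to describe a role were chosen after their values were seen. Likeness of pattern was not computed, since 2 samples of 1 group give no pattern. Nothing says more of how separate the pools were than that they are biological replicates, so their spread may be partly technical.

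Expected counts were rounded for edgeR 4.0.16 (TMM) and DESeq2 1.42.0 (size factors) in R 4.3.3, used only as alternative scalings. Other steps used Python 3.11.15, NumPy 2.4.6, pandas 2.3.3 and matplotlib 3.10.9. The code of the 2-fold count was run on simulated counts with changes planted in 200 genes. The simulation held no variation between pools and no division of reads among transcripts, so it cannot judge the real count. Alternatives covered the estimate, unit, scaling, pseudocount (1 against 0.1), thresholds and each replicate alone.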

Additional observations from a re-analysis of the deposited data

How the results depend on the processing

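The order of the 5 genes from Lyve1 to Mmrn1 to the 3 low genes was the same on every unit tried. Posterior mean TPM gave 1.54 for Prox1 and 1.69 for Reln, above Prox1. Rescaled over genes coding for protein, Prox1 was 1.80, Lyve1 66.0, Mmrn1 17.0 and Ccbe1 2.61 TPM. As FPKM they were 1.02, 37.6, 9.68 and 1.48. Divided by the length of the longest transcript, an alternative chosen after seeing the data, Prox1 was 1.33, Reln 0.565 and Ccbe1 1.21 TPM, with Prox1 then above Ccbe1, because short transcripts no longer add weight. With a single replicate, levels ran from 1.50 to 1.52 TPM for Prox1, 54.0 to 56.9 for Lyve1, 0.79 to 1.45 for Reln, 12.7 to 15.9 for Mmrn1 and 2.12 to 2.26 for Ccbe1. At 5 TPM, 2 of the 5 were detected in place of 4.

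Member differences between replicates moved by less than the spread of genes of their level, taken on log2(TPM + 1), under every alternative. Reln, at 0.45, ranged from 0.29 by the length of the longest transcript to 0.82 with the spike-in total. Ccbe1, at 0.06, ranged from -0.17 with DESeq2 size factors to 0.09 with a pseudocount of 0.1, so its sign did not hold. The count of genes differing 2-fold was 413 (298 higher and 115 lower in replicate 2), 134 at a mean of 5 TPM, 659 with a pseudocount of 0.1, 173 with TMM (148 and 25), 581 with DESeq2 size factors and 597 with the spike-in total. Ratios by expected counts reversed for Ccbe1 to Prox1 (-0.72) and Mmrn1 to Pf4 (1.02), since length is not divided out, and Reln to Dab1, whose sign had not held, moved to 0.55. A replicate difference cannot be had from 1 replicate. No paired analysis was possible because there is 1 group. Depth limits Prox1, Reln and Ccbe1, with 111 to 288 expected counts each.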
